A study of Mus musculus with 6 samples.

Results

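The 10 genes described here are brakes on cell division: the 3 Gadd45 stress genes (Gadd45a, Gadd45b and Gadd45g), the 3 CIP/KIP inhibitors of cyclin-dependent kinases (CDKs; Cdkn1a, Cdkn1b and Cdkn1c) and the 4 INK4 inhibitors (Cdkn2a, Cdkn2b, Cdkn2c and Cdkn2d). They were taken by symbol from the 46517 genes counted in cultured mouse renal tubule epithelial cells (RTECs), and they are complete families. They were chosen by their names, but with the measured response of these same cultures to TGF-β1 already known, which counts as selection on that contrast, so their changes with TGF-β1 are given below as a description, without p-values.

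INK4 proteins bind CDK4 and CDK6 and keep cyclin D from activating them, whereas CIP/KIP proteins bind whole cyclin-CDK complexes, chiefly those of CDK2. With the kinases held back, the retinoblastoma protein stays unphosphorylated and the E2F factors that drive S-phase genes stay silent. Gadd45 proteins are induced by stress and DNA damage and can bind PCNA, the CDK1-cyclin B complex and the kinase MEKK4 upstream of p38 and JNK. TGF-β is a classical growth inhibitor of epithelial cells, with Cdkn2b and Cdkn1a as textbook targets, and in the kidney it also drives fibrosis.

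The cells were grown from kidneys of wild-type FvB mice, 4 to 6 weeks old by the labels and 3 to 5 weeks old by the methods, in RPMI with serum, EGF and insulin-transferrin-selenium, and were moved to serum-free medium for 24 h. In one group, 3 cultures, TGF-β1 was then added at 50 ng/ml for 24 h. The control group (CTL), also 3 cultures, was labelled as control only. The labels number the cultures 1 to 3 in each group without saying whether these came from separate animals, so p-values measure only the spread between these cultures.

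Poly(A) RNA was sequenced, and the counts on genes summed to between 28313080 and 34183497 per library. Levels are given as normalized counts, which are counts scaled for library size and composition (TMM) to a common size. The replicate 2 cultures of both groups stood apart from the rest. Summed markers of renal epithelium (Pax8, Cdh16, Epcam, Krt8, Krt18, Krt19 and Cdh1) ranged over 32315 to 87277 in CTL and 28078 to 71042 after TGF-β1, with replicate 2 lowest in each group. Summed fibroblast markers (9 genes, with Col1a1 and Acta2 highest) ranged over 76516 to 156171 and 96270 to 209112, with replicate 2 highest in each group. Transcripts of 4 Y-linked genes summed to 4788 and 4500 in the replicate 2 cultures and to at most 5.46 in the others, although the study's methods name only male mice as the source of RTECs. Of the 8 markers of the proximal tubule, 4 (Slc34a1, Slc5a2, Slc22a6 and Slc27a2) had fewer than 20 counts in every library, and so had the collecting duct marker Aqp2. Of the 4 proximal genes tested 2 were lower with TGF-β1, the water channel gene Aqp1 at a log2 fold change of -2.91 (edgeR adjusted p = 0.00919) and the endocytic receptor gene Lrp2 at -0.93 (adjusted p = 0.0165). The collecting duct enzyme gene Hsd11b2 was higher, at 1.65 (adjusted p = 0.0415, passing in 2 of 6 fits with 1 culture left out). Scnn1g, the other collecting duct gene tested, was at -1.77 (adjusted p = 0.0845, and 0.00845 with the block). The endothelial and leukocyte lists summed to at most 150 and 295 normalized counts, and 1 gene of them was called, Csf1r, lower at -1.32 (edgeR adjusted p = 0.0238). Among epithelial markers, Pax8 and Cdh16 were lower with TGF-β1, at log2 fold changes of -0.774 and -1.505 (edgeR's quasi-likelihood test, Benjamini-Hochberg adjusted p = 0.00436 and 0.00922), and none of the 8 fibroblast genes tested passed (0 in either direction also at unadjusted p below 0.05, with DESeq2 and with limma-voom). With the replicate number as a block 5 of the 7 epithelial genes were lower, and 3 of the 8 fibroblast genes were higher and 2 lower. In such bulk cultures fewer cells of a type and less RNA per cell cannot be told apart, and the part of these markers in the results below was not tested.

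The proximal promoters of the 3 members called higher with TGF-β1 without the replicate block are shown first, with that of Cdkn1a, the most abundant of the 10. Each window runs from 250 bases before to 50 bases after a RefSeq start site in GRCm38.p6, written 5′ to 3′ on the gene's strand. In the first 4 windows capitals mark the GC box bound by Sp1 (GGGCGG), the minimal Smad core (CAGAC) and, for Gadd45a and Cdkn2b, the CCAAT box (CCAAT), on either strand. In the Cdkn1a window they mark p53 half-sites only. The 2 windows of Cdkn2a belong to its 2 first exons, 12427 bp apart, of which the farther upstream one starts the transcript of p19Arf and the other that of p16Ink4a.
Gadd45a promoter, chr6:67037358-67037657, minus strand: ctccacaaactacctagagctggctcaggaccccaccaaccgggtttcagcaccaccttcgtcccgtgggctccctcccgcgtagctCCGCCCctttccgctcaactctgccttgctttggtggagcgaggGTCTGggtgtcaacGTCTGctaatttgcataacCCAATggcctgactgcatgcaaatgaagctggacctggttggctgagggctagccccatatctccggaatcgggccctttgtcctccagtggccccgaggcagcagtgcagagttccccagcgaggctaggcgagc
Cdkn2b promoter, chr4:89310983-89311282, minus strand: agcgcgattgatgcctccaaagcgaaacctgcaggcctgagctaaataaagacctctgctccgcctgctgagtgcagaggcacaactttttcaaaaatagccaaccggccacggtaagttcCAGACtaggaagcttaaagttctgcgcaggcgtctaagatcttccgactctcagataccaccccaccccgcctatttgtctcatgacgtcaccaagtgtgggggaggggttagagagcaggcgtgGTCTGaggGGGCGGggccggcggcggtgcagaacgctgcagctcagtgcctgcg
Cdkn2a promoter of p19Arf, chr4:89294570-89294869, minus strand: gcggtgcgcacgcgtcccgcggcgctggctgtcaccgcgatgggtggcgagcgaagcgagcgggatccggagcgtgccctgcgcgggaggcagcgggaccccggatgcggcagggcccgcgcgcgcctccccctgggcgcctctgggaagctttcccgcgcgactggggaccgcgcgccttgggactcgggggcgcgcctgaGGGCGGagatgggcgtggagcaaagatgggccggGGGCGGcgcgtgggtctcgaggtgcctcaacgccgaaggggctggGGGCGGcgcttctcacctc
Cdkn2a promoter of p16Ink4a, chr4:89282143-89282442, minus strand: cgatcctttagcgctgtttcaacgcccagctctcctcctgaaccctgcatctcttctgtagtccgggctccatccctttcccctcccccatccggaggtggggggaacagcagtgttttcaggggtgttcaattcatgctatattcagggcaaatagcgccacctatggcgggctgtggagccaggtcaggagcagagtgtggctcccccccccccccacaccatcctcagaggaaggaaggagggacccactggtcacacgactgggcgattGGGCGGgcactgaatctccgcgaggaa
Cdkn1a upstream promoter, chr17:29090729-29091028, plus strand: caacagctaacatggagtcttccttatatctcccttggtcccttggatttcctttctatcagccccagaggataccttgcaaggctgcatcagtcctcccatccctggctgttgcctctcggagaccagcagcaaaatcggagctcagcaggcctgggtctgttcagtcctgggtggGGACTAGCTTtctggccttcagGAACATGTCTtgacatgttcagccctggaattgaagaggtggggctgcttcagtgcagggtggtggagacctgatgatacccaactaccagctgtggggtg

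The Cdkn2b window held 2 Smad cores, at 129 and 4 bases before the start site (first base of each match), and a GC box 4 bases after it. The Gadd45a window also held 2 Smad cores, at 119 and 105 bases before the start, with a GC box at 163, a CCAAT box at 86 and a p53 half-site at 40 bases before it, the last not capitalized. Neither Cdkn2a window held the Smad core, and the p19Arf window was the richest in G and C of all, at 77.0% against a median of 52.7% over 32851 RefSeq windows of 300 bases. The Cdkn1a window held 2 p53 half-sites, at 73 and 51 bases before the start, and a Smad core at 93 bases before it, not capitalized. A second RefSeq start of Cdkn1a lay 2790 bp downstream, and its window, not printed here, held 2 GC boxes and 1 Smad core. In all, 12 windows were found for 9 of the 10 genes, with none for Cdkn1c. Of these 12, 9 held a GC box, 8 a Smad core, 7 a CCAAT box, 3 a p53 half-site, 2 a TATA box (TATAAA) and 1 an E2F site (TTTNGCGC), against 35.7%, 49.6%, 37.4%, 8.36%, 13.6% and 1.38% of all windows. A CCAAT box read on the other strand (ATTGG) can run into a GC box, as it does in the p16Ink4a window, where only the GC box is capitalized. Such matches describe letters and are no evidence of binding.

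All 10 genes had enough counts to be tested, the lowest count of any of them in a library being 90. In 7 of them every TGF-β1 culture lay above every CTL culture, an arrangement found in 17.2% of all 15862 genes tested, and in Cdkn2d every TGF-β1 culture lay below every CTL culture, as in 18.0% of all genes. The groups overlapped in Cdkn1b and Cdkn2c. With edgeR's test at an adjusted p-value below 0.05, Gadd45a, Cdkn2b and Cdkn2a were higher with TGF-β1, beside 5.00% of all genes called higher, and no member was called lower, beside 6.69% (limma-voom and DESeq2 also called 0 lower, and at unadjusted p below 0.05 it was 1). Scaled by library size only, the test called 508 genes higher and 1467 lower (3.20% and 9.25%) in place of 793 and 1061, and 2 members higher, Cdkn2a being lost. DESeq2 called 5 members higher, Gadd45g and Cdkn1a being added, beside 1109 genes higher and 1499 lower (6.37% and 8.61% of those it gave an adjusted p). Same-numbered cultures of the 2 groups varied together, and with the replicate number as a block 6 members were called higher and 2 lower, beside 15.1% and 19.1% of all genes. Gadd45g, Cdkn1a and Cdkn1c joined on the higher side, and Cdkn2c and Cdkn2d on the lower. Because the members were chosen with this contrast known, nothing is read from these counts. The median log2 fold change was 0.44 over the 10 genes and -0.0028 over all genes tested.

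**Figure D1:**
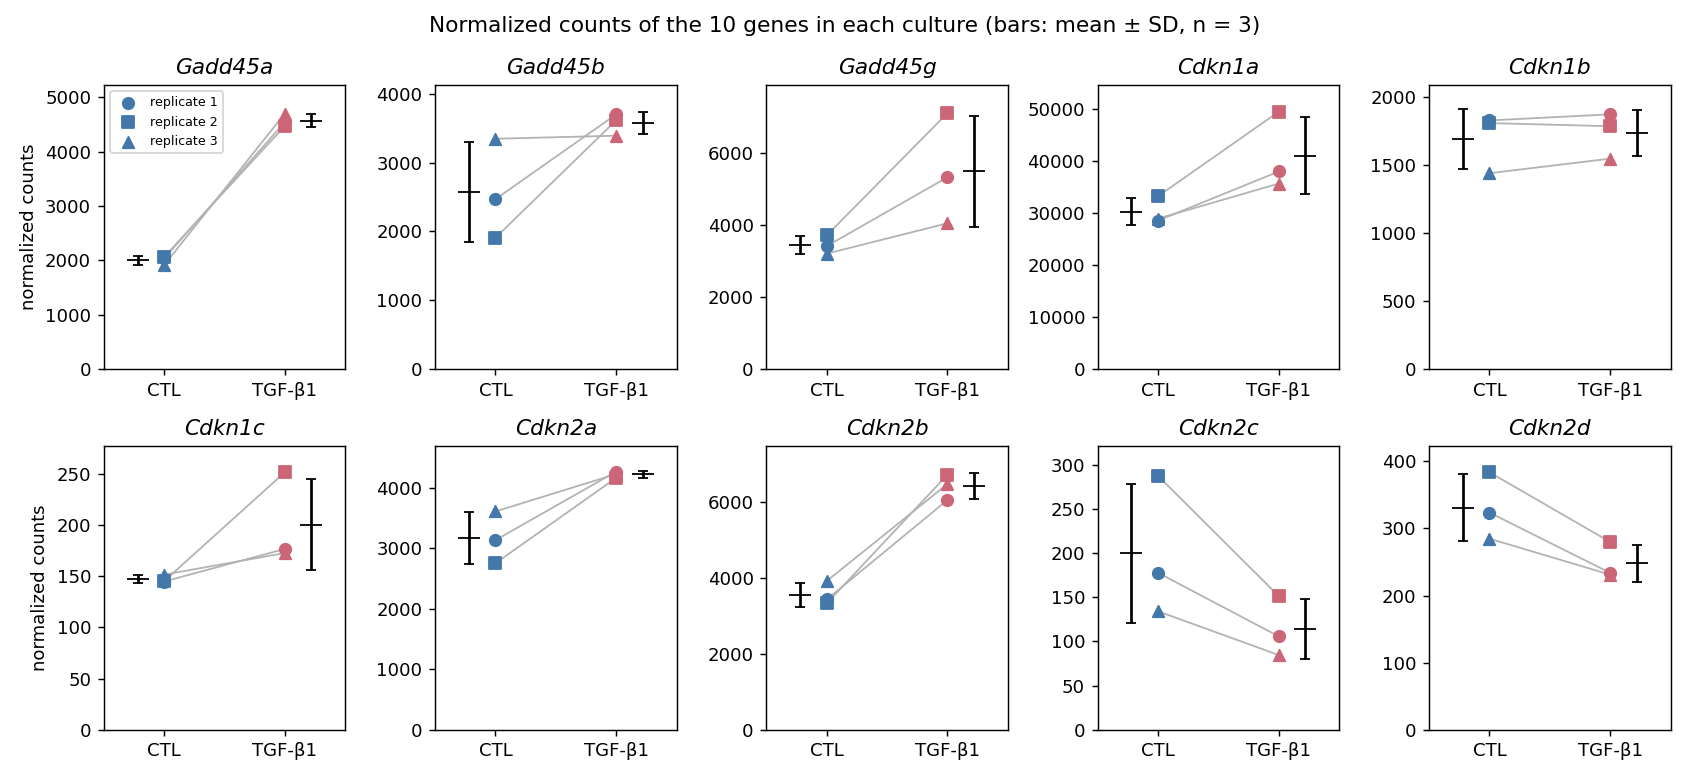
Normalized counts (y axis, linear from 0, 1 panel per gene with its own scale) in the 3 CTL and 3 TGF-β1 cultures (x axis), with grey lines joining cultures of the same replicate number and bars giving mean ± SD. Gadd45a, Cdkn2a and Cdkn2b sit tightly together after TGF-β1 and above every CTL culture, while replicate 2 (squares) is highest in both groups for Gadd45g, Cdkn1a, Cdkn2c and Cdkn2d.

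Gadd45a (ENSMUSG00000036390.7, chr6:67035096-67037457, minus strand) had the largest change of the 10. Its normalized counts were 2034, 2060 and 1911 in CTL cultures 1 to 3, and 4542, 4472 and 4700 in the TGF-β1 cultures of the same numbers. The treated cultures were far above the controls, and within each group the cultures were almost level. The means were 2001 ± 79.6 and 4572 ± 117 (SD, n = 3 each), a 2.28-fold rise, with a log2 fold change of 1.19 ± 0.049 (SE). The non-coding E230016M11Rik overlaps Gadd45a on the other strand, with 10 to 24 counts per library. Whether the counting used strand is not given in the sources used here.

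Gadd45b (ENSMUSG00000015312.8, chr10:80930073-80932204, plus strand), an early response gene of TGF-β in several cell types, was at 2468, 1907 and 3348 in CTL and at 3703, 3617 and 3393 after TGF-β1. The groups did not overlap, but by little, because CTL culture 3 was high and differed from its treated partner by only 0.019 on the log2 scale, against 0.59 and 0.92 in replicates 1 and 2. The means were 2574 ± 726 and 3571 ± 160, with a log2 fold change of 0.47 ± 0.20 that was not called, with or without the block. Without CTL culture 3 the log2 fold change was 0.71 and was called, and without CTL culture 2 it was 0.30 and was not.

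Gadd45g (ENSMUSG00000021453.2, chr13:51846678-51848468, plus strand), the member most abundant per length in its family, was at 3404, 3701 and 3195 in CTL and at 5315, 7094 and 4038 after TGF-β1. All 3 pairs differed in the same direction, by 0.64, 0.94 and 0.34 on the log2 scale, and the order of the cultures was the same in both groups, replicate 2 first and replicate 3 last. The means were 3433 ± 254 and 5482 ± 1535, and the log2 fold change was 0.67 ± 0.20 without the block (not called) and 0.64 ± 0.11 with it (called). Without TGF-β1 culture 3 it was 0.86, and called without the block, and without TGF-β1 culture 2 it was 0.44, and not called. With both replicate 2 cultures left out it was 0.50 without the block (not called) and 0.49 with it (called).

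Among the CIP/KIP inhibitors Cdkn1a (ENSMUSG00000023067.12, chr17:29090976-29100727, plus strand), which encodes p21, the p53-inducible inhibitor of CDK2 complexes, was the most abundant. Its normalized counts were 28479, 33158 and 28861 in CTL and 37906, 49395 and 35594 after TGF-β1. Replicate 2 was highest in both groups, yet the lowest treated culture stayed above the highest control. The means were 30166 ± 2598 and 40965 ± 7392, a ratio of 1.36. The log2 fold change was 0.44 ± 0.14 and was not called, and 0.43 ± 0.063 and called with the block. With both replicate 2 cultures left out, it was 0.36 and called with and without the block, and with only TGF-β1 culture 2 left out it was 0.28 and not called.

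Cdkn1b (ENSMUSG00000003031.13, chr6:134920401-134925513, plus strand), which encodes p27, an inhibitor controlled largely through its degradation, was level in the 2 groups. It was at 1828, 1808 and 1439 in CTL and at 1872, 1785 and 1546 after TGF-β1, so the cultures of the groups interleaved and replicate 3 was lowest in each. The log2 fold change was 0.04 ± 0.12, or 0.04 ± 0.048 with the block, and it was -0.04 when libraries were scaled by size only.

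Cdkn1c (ENSMUSG00000037664.11, chr7:143458339-143461050, minus strand), the imprinted gene of p57, was the least abundant CIP/KIP member. It was at 145, 145 and 152 in CTL, and at 177, 252 and 173 after TGF-β1. The control values were nearly equal, while the treated replicate 2 culture lay well above the other two. The means were 147 ± 3.78 and 201 ± 44.5, with a log2 fold change of 0.44 ± 0.17 that was not called. With the block it was 0.43 ± 0.14 and called, and without both replicate 2 cultures it was 0.24 and not called in either fit, as it was without TGF-β1 culture 2 alone.

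Of the INK4 genes, Cdkn2b and Cdkn2a lie side by side on the minus strand of chromosome 4, separated by 11646 bp, and both rose. Cdkn2b (ENSMUSG00000073802.4, chr4:89306299-89311039), the gene of p15, was at 3435, 3330 and 3919 in CTL and at 6056, 6724 and 6479 after TGF-β1. The groups were far apart beside their own spread, with means of 3561 ± 314 and 6420 ± 338, a 1.80-fold rise and a log2 fold change of 0.85 ± 0.078. Each pair showed it, at 0.82, 1.01 and 0.73 on the log2 scale.

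Cdkn2a (ENSMUSG00000044303.6, chr4:89274471-89294653) was at 3133, 2751 and 3608 in CTL and at 4267, 4164 and 4226 after TGF-β1. The controls spread widely and the treated cultures hardly at all, at 3164 ± 429 and 4219 ± 51.8. The log2 fold change of 0.42 ± 0.097 passed the test, but with 1 culture left out it passed in 1 of 6 fits, at 0.52 without CTL culture 3, and it ranged from 0.32 without CTL culture 2 to that value. The reads were counted per gene, so transcripts of p16Ink4a, a CDK4/6 inhibitor, and of p19Arf, which stabilizes p53, cannot be told apart here. The ratio of Cdkn2b to Cdkn2a per kb of exon was 0.924, 1.02 and 0.916 in CTL and 1.20, 1.36 and 1.29 after TGF-β1, without overlap.

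The other two INK4 genes were lower after TGF-β1 and far less abundant. Cdkn2c (ENSMUSG00000028551.13, chr4:109660876-109667189, minus strand), the gene of p18, was at 178, 288 and 134 in CTL and at 106, 151 and 84.6 after TGF-β1. The groups overlapped, since the treated replicate 2 culture exceeded CTL culture 3, but in each pair the treated culture was lower, by -0.75, -0.93 and -0.67 on the log2 scale. The log2 fold change was -0.82 ± 0.34, not called, and -0.79 ± 0.11, called, with the block. With 1 culture left out it ran from -1.08 without TGF-β1 culture 2 to -0.46 without CTL culture 2, never called.

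Cdkn2d (ENSMUSG00000096472.1, chr9:21288410-21291407, minus strand), the gene of p19Ink4d, was at 324, 384 and 285 in CTL and at 234, 280 and 231 after TGF-β1. The highest treated culture lay just under the lowest control. The log2 fold change was -0.42 ± 0.14, not called, and -0.41 ± 0.086, called, with the block. Without both replicate 2 cultures the log2 fold changes of Cdkn2c and Cdkn2d were -0.72 and -0.39 (not called), or -0.71 and -0.39 (called) with the block.

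**Figure D2:**
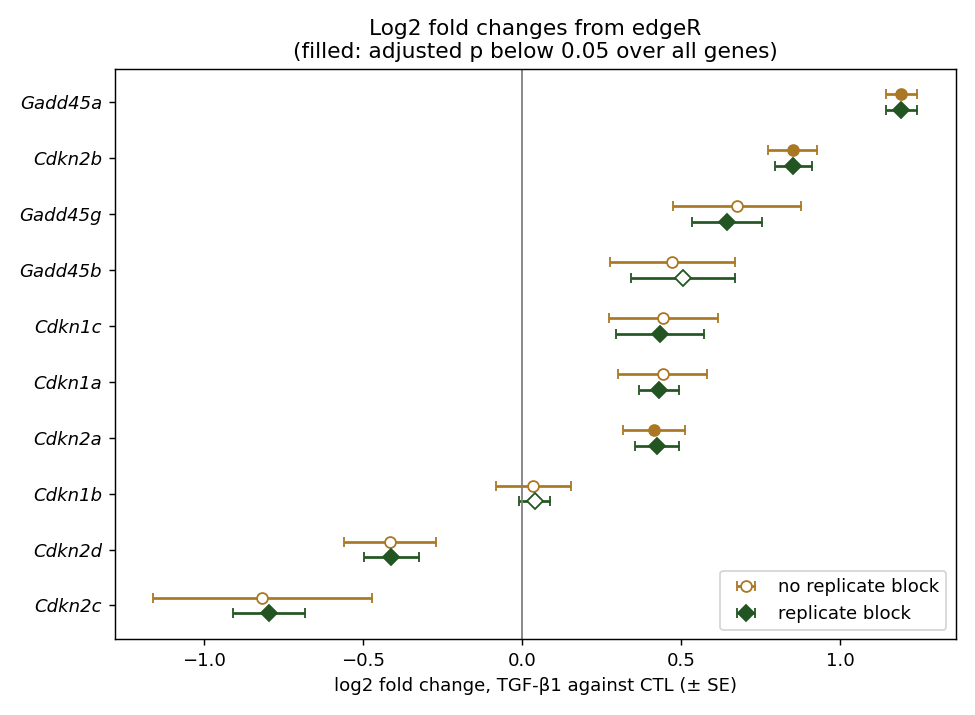
Log2 fold change of each gene, TGF-β1 against CTL (x axis, ± SE), from edgeR without the replicate block (brown circles) and with it (green diamonds), filled where the adjusted p-value over all genes was below 0.05. The estimates hardly move between the fits, from 1.19 for Gadd45a down to about -0.8 for Cdkn2c, while the errors of Cdkn2c, Cdkn1a and Gadd45g shrink.

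Levels of different genes were compared as normalized counts per kb of exon. In CTL the order was Cdkn1a (8490 ± 731), Gadd45g (2927 ± 217), Cdkn2a (2700 ± 366), Cdkn2b (2562 ± 226), Gadd45b (1620 ± 457), Gadd45a (1135 ± 45.2), Cdkn1b (372 ± 48.1), Cdkn2d (210 ± 31.7), Cdkn2c (74.4 ± 29.4) and Cdkn1c (72.2 ± 1.86). The cultures of Gadd45g and Cdkn2a, of Cdkn2a and Cdkn2b, and of Cdkn2c and Cdkn1c overlapped, and the other neighbours in this order did not. After TGF-β1 Cdkn2b stood ahead of Cdkn2a (4619 ± 243 against 3600 ± 44.2) and Gadd45a ahead of Gadd45b (2592 ± 66.3 against 2247 ± 101), in both cases without overlap. Cdkn1a (11530 ± 2080) remained first, Gadd45g (4674 ± 1309) overlapped Cdkn2b, and Cdkn2c (42.4 ± 12.7) was last.

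Summed per kb, the Gadd45 family was at 5608, 5523 and 5914 in CTL and at 9436, 10859 and 8242 after TGF-β1. The CIP/KIP sum went from 8488, 9801 and 8514 to 11167, 14418 and 10442, and the INK4 sum from 5417, 5094 and 6128 to 8185, 8625 and 8445. In each family the sums of the groups did not overlap. The members were chosen with this contrast known, and 17.2% of all genes tested were higher in every TGF-β1 culture, so nothing is read from it. Cdkn2c and Cdkn2d made up only 1.38% and 3.85% of the INK4 sum in CTL. The share of Gadd45a in its family went from 20.0% ± 1.49 to 27.7% ± 4.50, that of Cdkn2b in the INK4 sum from 46.2% ± 0.729 to 54.8% ± 1.47 and that of Cdkn2a from 48.6% ± 2.19 to 42.8% ± 1.64. Cdkn1a held 95.0% ± 0.520 of the CIP/KIP sum in CTL and 96.0% ± 0.443 after TGF-β1.

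**Figure D3:**
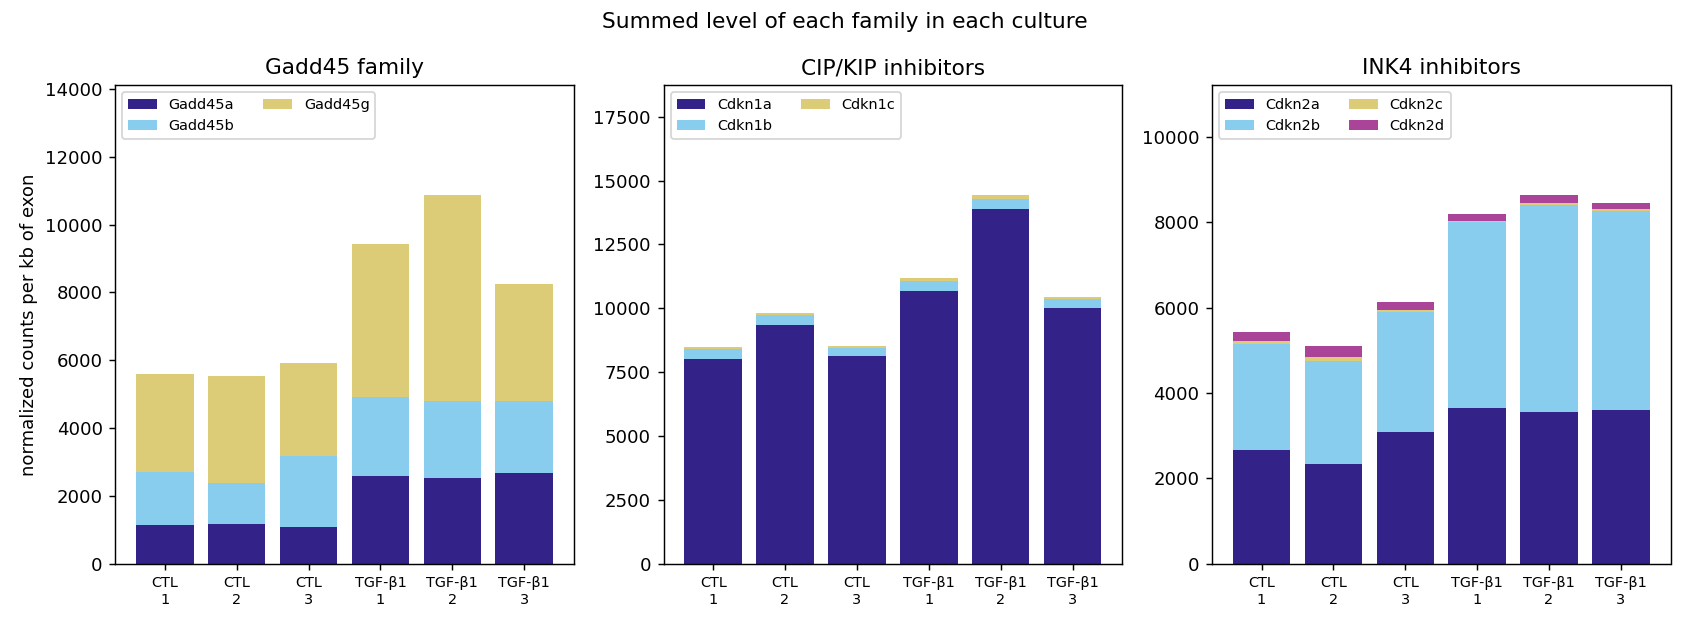
Summed normalized counts per kb of exon (y axis, from 0) of the Gadd45, CIP/KIP and INK4 genes in each culture (x axis), with each gene's part in its own color. Every TGF-β1 bar is taller than every CTL bar in all 3 panels, for genes chosen with this contrast known. Cdkn1a alone makes up nearly the whole of the CIP/KIP sum.

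The inhibitors act by binding kinases and cyclins, whose levels bear on the balance. The INK4 sum divided by the sum of Cdk4 and Cdk6 per kb was 1.66, 1.62 and 1.72 in CTL and 2.50, 2.55 and 2.396 after TGF-β1. Cdkn1a divided by the sum of the D cyclins Ccnd1, Ccnd2 and Ccnd3 per kb was 1.67, 1.51 and 1.58, and then 3.34, 3.18 and 2.66. This ratio depends on the divisor, since Cdkn1a itself was 1.36-fold higher and Ccnd1 was lower. Cdk2 was level, at 758 ± 4.36 normalized counts in CTL and 762 ± 61.1 after TGF-β1. Both ratios were higher in every treated culture than in every control, for members chosen with this contrast known. In neither was replicate 2 the highest in both groups, as it was for Cdkn1a itself. The INK4 sum includes all Cdkn2a reads, 48.6% of it in CTL, and the part of these from p19Arf transcripts is not known. These are ratios of RNA, not of protein.

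The replicate number was tested with TGF-β1 in the model, a test added after the values had been seen. Of the 10 genes 3 differed between the numbers, beside 18.1% of all genes, and nothing is read from this count. These were Cdkn2c (edgeR, adjusted p = 0.00429), Cdkn1b (adjusted p = 0.0147) and Cdkn1a (adjusted p = 0.0286). Cdkn2c was 0.62 higher in replicate 2 than in replicate 1 on the log2 scale and Cdkn1a was 0.30 higher, whereas Cdkn1b was -0.31 in replicate 3 against replicate 1. Gadd45a had nearly the same level in all 3 numbers (log2 differences of -0.0025 and -0.016 from replicate 1, edgeR adjusted p = 0.983). Gadd45g, Cdkn1a, Cdkn2c and Cdkn2d were highest in replicate 2 in both groups, where summed epithelial markers were lowest and summed fibroblast markers highest. Not every single marker followed these sums. The fibroblast gene Thy1 was lowest in replicate 2 of both groups, and Pax8 was highest there in CTL. Replicate 2 was also the only number with Y-linked transcripts (4788 and 4500 normalized counts, at most 5.46 in the others). The markers and the Y-linked difference therefore cannot be told apart, and the part of either in the levels was not tested.

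Genes around the inhibitors were read from 10 lists by function, 115 genes in all, of which 107 had enough counts to be tested. These lists were chosen with earlier results of these data known, so their adjusted p-values are a description and no independent support. Together 10 were higher and 13 lower with TGF-β1 (23 and 37 with the block). Of all genes tested, 5.00% were called higher and 6.69% lower (15.1% and 19.1% with the block). The same shares stand beside each list count below. With any 1 culture left out the counts ran from 1 to 9 higher and from 2 to 11 lower, with the fewest without the replicate 1 culture of either group. Of the 23 called genes, all named below, Skil, Ccna2 and Ccnb2 passed in all 6 of these fits, whereas Ccne1, Cdk6, Cbx7 and Klf4 passed in none of them. Among 9 known TGF-β responders 4 were higher and 1 lower (6 and 3 with the block), with a list median of 0.16. The feedback inhibitors Skil, Pmepa1 and Smad7 rose by 0.76, 0.87 and 0.55 on the log2 scale (edgeR adjusted p = 0.00379, 0.0105 and 0.014), as did the TGF-β binding protein gene Ltbp2 by 0.42 (adjusted p = 0.0194). Id2, an inhibitor of helix-loop-helix factors, fell by 2.00 (adjusted p = 0.0104). Id3 was at -1.07 (adjusted p = 0.248, and 6.76e-05 with the block).

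Several of the kinases and cyclins that the inhibitors bind were lower. Of 12 cyclins and CDKs 7 were lower and none higher (10 and 0 with the block; the count of higher genes was also 0 at unadjusted p below 0.05, with DESeq2 and with limma-voom), with a median of -0.67. The mitotic genes changed most. Log2 fold changes were -2.28 for Ccna2 (edgeR adjusted p = 0.00379), -2.06 for Ccnb2 (adjusted p = 0.00712), -2.04 for Ccnb1 (adjusted p = 0.012) and -1.42 for Cdk1 (adjusted p = 0.0119). Of the G1 genes, Ccnd1 went from 8738 ± 806 to 4310 ± 935 normalized counts (log2 fold change -1.02, adjusted p = 0.0166), Ccne1 fell by 0.69 (adjusted p = 0.0482, and 0.0513 without both replicate 2 cultures) and Cdk6 by 0.37 (adjusted p = 0.0441). Cdk4 was at 0.12 (adjusted p = 0.294) and Cdk2, the chief CIP/KIP target, at 0.0079 (adjusted p = 0.961). Ccnd2, at 30279 ± 6542 normalized counts in CTL, was at -0.30 (adjusted p = 0.411, and 0.00309 with the block). Among 11 pocket proteins and E2F factors, only the repressor E2f7 passed, at -1.55 (adjusted p = 0.0233), while Rb1 was at 0.06 (adjusted p = 0.681). With the block 2 of these 11 were higher and 2 lower, E2f3 among the higher at 0.23 (adjusted p = 0.0505, and 0.0128 with the block). The pocket list median was -0.00014.

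Of the 10 genes of the machinery that degrades p27 and p21, 0 passed in edgeR, with 1 higher and 1 lower at unadjusted p below 0.05, 0 and 1 with DESeq2, none with limma-voom and 2 and 1 with the block. Its median was 0.042. Cks1b, the cofactor of the p27 ligase, was at 0.27 (adjusted p = 0.0853, and 0.0192 with the block) and Dtl, the p21 ligase receptor, at -0.64 (adjusted p = 0.0728, and 0.0112 with the block).

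Of 17 regulators of inhibitor transcription 15 were tested, with 1 higher and 2 lower (1 and 6 with the block) and a median of -0.085. Foxo1, an activator of Cdkn1b, rose by 0.37 (edgeR adjusted p = 0.0354), and Cbx7, a Polycomb repressor of the Cdkn2a locus, and Klf4, an activator of Cdkn1a, fell by 1.00 and 0.45 (adjusted p = 0.049 and 0.0499). Cbx7 and Klf4 did not pass without both replicate 2 cultures, at -0.89 and -0.29, unless the block was used. Smad3 was at -0.46 (adjusted p = 0.0698, and 0.00017 with the block). Trp53, the p53 gene, was at 0.06 (adjusted p = 0.75).

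Among 22 p53 targets other than the 10 genes, 3 were higher and 1 lower (6 and 2 with the block), with a median of 0.068. Pmaip1, which encodes the death protein Noxa, rose by 0.90 (edgeR adjusted p = 0.0433), Mdm2, the p53 ligase, by 0.50 (adjusted p = 0.0104) and the polymerase gene Polk by 0.31 (adjusted p = 0.0248), while Bbc3, the Puma gene, fell by 0.38 (adjusted p = 0.0149). Ccng1, abundant at 36451 ± 3149.6 normalized counts in CTL, was at 0.12 (adjusted p = 0.495).

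Of 14 partners of the Gadd45 proteins in the p38 and JNK cascades and in the cell cycle, 1 was higher and 2 were lower (2 and 8 with the block), with a median of -0.16. Mapk8, the JNK1 gene, rose by 0.23 (edgeR adjusted p = 0.0375, and 0.0723 without both replicate 2 cultures). The 2 lower genes were Cdk1 and Ccnb1, which are also in the list of cyclins and CDKs. Map2k4 was at 0.13 (adjusted p = 0.0924, and 0.0438 with the block) and Mapk13 at -0.51 (adjusted p = 0.491, and 0.000289 with the block).

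Genes used as markers of senescence, a lasting arrest in which Cdkn2a and Cdkn1a are often high, went in both directions. Of 11 genes 9 were tested, with 1 higher and 1 lower (1 and 6 with the block) and a median of -0.40. Igfbp5 rose by 1.81 (edgeR adjusted p = 0.0386), although not without both replicate 2 cultures unless the block was used. Hmgb2 fell by 0.74 (adjusted p = 0.0184). Lmnb1 was at -0.23 (adjusted p = 0.225, and 0.0196 with the block). Other tested genes of secreted factors lay below 0, with the chemokine genes Ccl2 at -1.50 (adjusted p = 0.108, and 6.27e-05 with the block) and Cxcl1 at -1.52 (adjusted p = 0.106, and 0.00103 with the block), the protease gene Plau at -1.30 (adjusted p = 0.165, and 0.000127 with the block) and Igfbp7 at -0.20 (adjusted p = 0.176, and 0.0286 with the block).

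Neighbours on the chromosome were read for the clustered members. In the imprinted Kcnq1 domain around Cdkn1c 6 of 9 genes were tested and none passed in edgeR, at unadjusted p below 0.05, with DESeq2 or with limma-voom (2 were higher and 1 lower with the block), with a median of 0.030. Slc22a18, 12686 bp from Cdkn1c, was at -0.68 (adjusted p = 0.308, and 0.00143 with the block) and the antisense RNA Kcnq1ot1 at -0.21 (adjusted p = 0.587). Mtap, the nearest protein-coding gene on the other side of Cdkn2a, at 93390 bp, was at 0.26 (edgeR adjusted p = 0.151, and 0.0108 with the block).

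**Figure D4:**
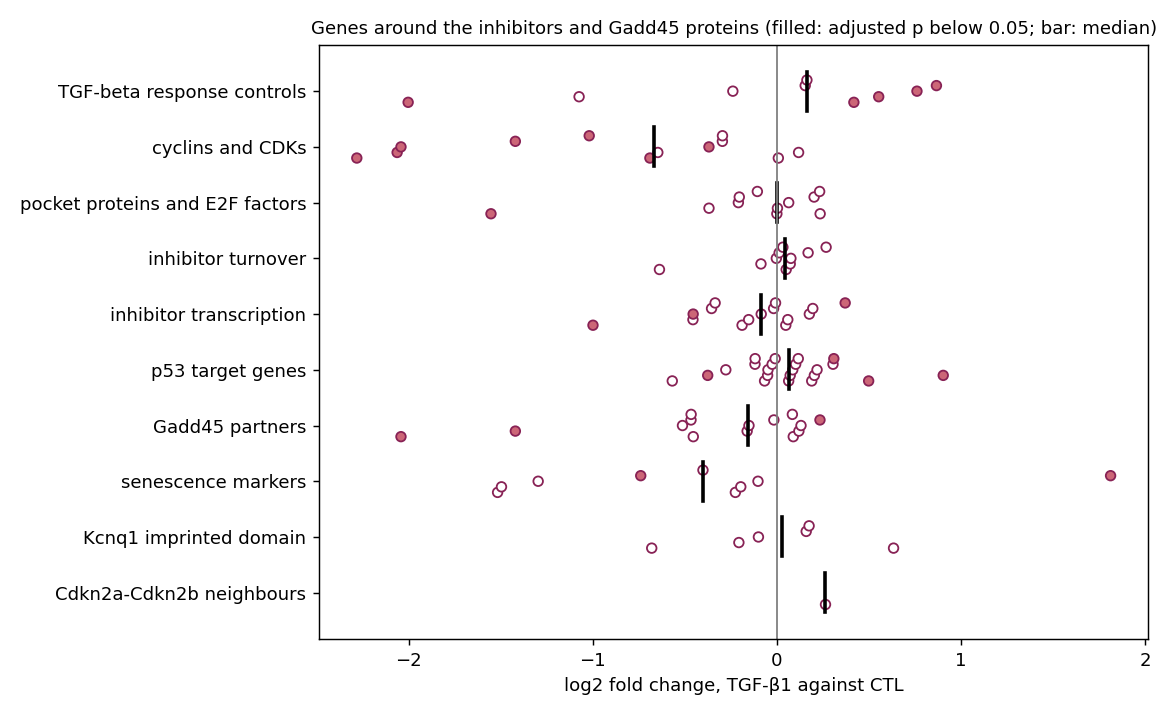
Log2 fold change with TGF-β1 (x axis) of the tested genes in 10 lists of related genes (rows), filled where edgeR's adjusted p-value was below 0.05, with a bar at each list's median. The cyclins and CDKs lie mostly to the left, with a median of -0.67, and the TGF-β responders spread to both sides, with a median of 0.16.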

How the data were processed

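RNA from 6 RTEC cultures (3 CTL, 3 TGF-β1, grouped by their labels) was sequenced from 100 ng with poly(A) selection as single 50-bp reads. The authors trimmed the reads with Trim Galore, aligned them to GRCm38 with STAR 2.4.1d and counted them with HTSeq 0.6.1. The deposited values are whole read counts per gene, not normalized. The annotation release and strand setting are not given in the sources used here. Reads with no gene (4.16 to 4.93%), on several genes (1.88 to 1.97%) or with several alignments (18.7 to 19.4%) stayed out of totals and tests. Library totals allow a floor of 3 counts, or 0.0878 to 0.106 CPM, which covers counting error only. No 2 libraries of a group matched within sampling noise (lowest chi-square per degree of freedom 9.024).

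Symbols, positions and exon lengths came from GENCODE M21 (46005 of 46517 identifiers matched) and promoter sequences from RefSeq GRCm38.p6. Counts were tested in R 4.3.3 with edgeR 4.0.16 (filterByExpr, TMM, robust glmQLFit, two-sided glmQLFTest, Benjamini-Hochberg over 15862 genes, threshold 0.05), with the condition as the only term, since the study compared the groups without pairing. Standard errors were the absolute log2 fold change divided by the square root of F in the same fit's test, so they restate that test. Normalized counts are counts after TMM scaling to the geometric mean library size. The fit was tested on simulated data first. Pairing by replicate number was checked on deviations from the group means: their correlation was 0.34, 0.684 and 0.572 for cultures that shared a number and -0.617 to 0.215 for those that did not. Deviations within a group sum to 0, which lowers the correlations between different numbers. The numbers were read as pairing the samples, least clearly for number 1 (0.34, against 0.215 and 0.144 between numbers 1 and 3). Blocked values stand beside results whose call they change. Alternatives were RLE normalization, library size only, DESeq2 1.42.0, limma-voom (limma 3.58.1), 2 other count filters, a threshold of 0.01, the replicate block, leaving out each culture, and raw counts in place of counts per kb for shares. Leaving out both cultures of a number and the test of the replicate number were chosen after seeing the data. Figures were drawn with matplotlib 3.10.9.

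The 10 genes and the gene lists were chosen with earlier results of these data known. All 10 genes were named, and from each list the genes past the threshold by size of change and up to 4 others by expression. Id3, Cdk2, Ccnd2, E2f3, Cks1b, Dtl, Map2k4, Mapk13, Ccl2, Cxcl1, Slc22a18, Kcnq1ot1, Trp53, Scnn1g and Thy1 were named after their values were seen. A few listed genes are not reported here and were left out of the lists' counts. The study's animal models, human kidneys and other cell lines were not analysed here.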

Additional observations from a re-analysis of the deposited data

How the results depend on the processing

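Gadd45a and Cdkn2b were called higher under every alternative run on the 6 cultures and with each culture left out, at log2 fold changes of 1.16 to 1.21 and 0.80 to 0.92 when 1 culture was left out. Without both replicate 1 cultures and without the block edgeR called 0 of 15961 genes tested (756 were higher and 1182 lower at unadjusted p below 0.05; DESeq2 was not run there), these 2 included. Members called higher (3, with none lower) numbered 6 higher and 2 lower with the replicate block, which changed the call of no member beyond those named in the text, and 5 higher with DESeq2 (1109 higher and 1499 lower over all genes), and 2 to 4 higher with 0 lower when 1 culture was left out. Without both cultures of replicate 1, 2 or 3, members called higher numbered 0, 4 and 2, and with the block 5, 5 and 7 higher and 1, 2 and 2 lower.

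Over all genes, 793 higher and 1061 lower became 508 and 1467 by library size only, 2388 and 3037 with the replicate block, and 127 and 192 at a threshold of 0.01. They became 109 to 516 and 186 to 807 with 1 culture left out, the fewest without the replicate 1 culture of a group. Without both cultures of replicate 1, 2 or 3 they were 0 and 0, 1084 and 1290, and 95 and 190, and with the block 1026 and 1649, 2288 and 2718, and 2581 and 3254. For the gene lists, 10 higher and 13 lower became 23 and 37 with the replicate block, 1 and 2 at a threshold of 0.01, 1 to 9 and 2 to 11 with 1 culture left out, and 19 and 39 with the block and without replicate 2.

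The log2 fold change turned negative by library size only for Cdkn1b (-0.0389), Rb1 (-0.0106) and Trp53 (-0.0138), none of them called. With 1 culture left out they ranged from -0.068 to 0.11, from -0.012 to 0.11 and from -0.022 to 0.15. As shares of raw counts, Gadd45a went from 25.1% to 33.9%, Gadd45g from 43.04% to 39.7%, Cdkn1a from 94.2% to 95.4%, Cdkn2a from 43.5% to 38.4% and Cdkn2b from 49.1% to 58.3%, each in the same direction as per kb. Where a call changed, the cause was not tested. The lowest count of any of the 10 genes in a library was 90, in Cdkn2c, against the floor of 3 counts.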
